A study of Populus trichocarpa with 12 samples.

Results

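Regions of the poplar genome where histone H3 lysine 9 acetylation (H3K9ac) stood on one side of the watered level after 5 days without water and on the other side after 7 days are described here. They were chosen by their measured H3K9ac values, as pairs of a region listed at day 5 and a region listed at day 7 on 1 chromosome that shared at least 1 bp. In 1 region of a pair both drought libraries lay above both day 0 libraries, and in the other both lay below. Among all listed regions both drought libraries lay above both day 0 libraries in 45.8% at day 5 and 47.4% at day 7, and below both in 51.1% at day 5 and 49.7% at day 7. Of 7002 overlapping pairs, 671 met this rule (9.58%). In 359 the day 5 region was higher and the day 7 region lower than day 0 (up-then-down), and in 312 the reverse held (down-then-up). The 671 pairs were built from 665 of the 10605 regions listed at day 5 and 661 of the 12101 listed at day 7. Since these values made the choice, they are given as a description, with no test.

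Acetyl groups are placed on lysine 9 of histone H3 by histone acetyltransferases and taken off by histone deacetylases. In plants the mark lies mainly over promoters and the first part of transcribed genes, and its level tends to go with transcription. It can turn over within hours, so a region can in principle gain the mark in one phase of a stress and lose it in the next.

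The mark was mapped by ChIP-seq, in which DNA bound to the acetylated histone is pulled down with an antibody and sequenced, in stem differentiating xylem, the tissue that forms wood, of 3-month-old Populus trichocarpa (black cottonwood) grown in a greenhouse. Plants at day 5 had gone 5 days without water, a mild drought with a soil water content of 33% and a xylem water content of 75.3%. Plants at day 7 had gone 7 days without water, a severe drought with 29% and 74.3%. Plants at day 0 were fully irrigated, with 74% and 80.6%. Each day had 2 H3K9ac libraries and 2 libraries of input DNA, and both drought days were set against the same 2 day 0 H3K9ac libraries. Whether the replicates of a day are different plants is not stated, and their spread may be technical. Neither drought day had a watered group of its own age, so drought and time cannot be told apart. The tissue was measured in bulk, and a change in the share of its cell types cannot be told apart from a change of the mark within cells. The genome build is not given in full in the sources used here, so no gene was assigned to any region and no sequence is printed.

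The values are reads per region divided by a constant per library, called normalised reads here. The constants of the day 0 libraries differ between the day 5 and the day 7 comparison. They could be turned back into whole reads. In the paired regions a library held a median of 278 to 493 reads and never fewer than 102. Counting error alone gave a median standard error of 0.07 at day 5 and 0.08 at day 7 on the log2 scale. The replicates of a day differed by a median of 0.06 at day 5 and 0.07 at day 7 in the paired regions, against 0.09 at day 5 and 0.09 at day 7 over all listed regions. The rule favours regions whose replicates lie close together, so nothing is read from this difference. A gap between 2 libraries is also another measure than a standard error.

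Changes of opposite direction were small. In the authors' deposited table the up-then-down pairs had a median log2 change of 0.20 at day 5 (interquartile range 0.12 to 0.31) and of -0.19 at day 7 (-0.29 to -0.13). The down-then-up pairs had medians of -0.24 at day 5 (-0.37 to -0.15) and 0.22 at day 7 (0.14 to 0.32). The smaller of the 2 absolute changes in a pair had a median of 0.14 in up-then-down pairs and 0.17 in down-then-up pairs, against 0.41 in the 2476 pairs gained on both days and 0.39 in the 3461 pairs lost on both days. Only 71 opposite pairs passed a log2 change of 0.3 on both days, 29 of them up-then-down and 42 down-then-up. At 0.5 on both days 7 up-then-down and 2 down-then-up pairs remained of 1935 overlapping pairs of that size. Among pairs whose smaller change was 0.1 to under 0.2, opposite directions made up 28.4% of 1078. Under 0.1 they made up 21.2% of 708.

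**Figure D1:**
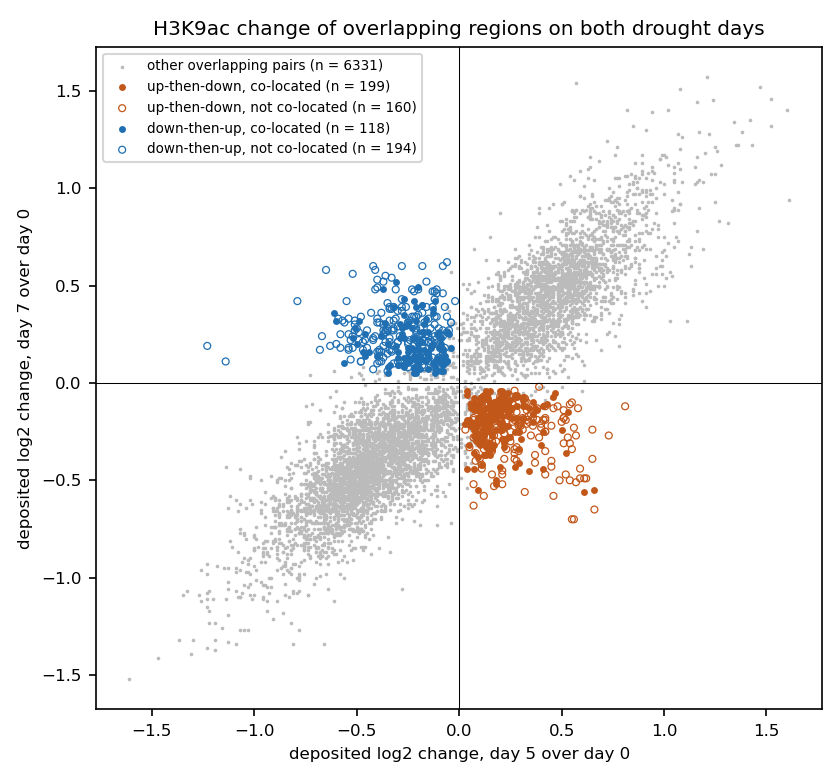
Each point is a pair of overlapping regions, with the deposited log2 change at day 5 (horizontal) and at day 7 (vertical), both over day 0. The 671 opposite pairs fill the upper left and lower right and stay close to 0, while the other overlapping pairs stretch along the diagonal.

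The position of the intervals differed as well. Both regions of a pair were short, with a median length of 1200 bp at day 5 and 1100 bp at day 7, against 1600 bp on both days in pairs gained on both days and in pairs lost on both days. The shared stretch had a median of 60% of the shorter region over all opposite pairs, 70% in up-then-down pairs (interquartile range 40% to 90%) and 54.5% in down-then-up pairs (30% to 81.8%). In pairs gained on both days and in pairs lost on both days it was 100%. The centres of the 2 intervals lay a median of 500 bp apart in up-then-down pairs and 700 bp apart in down-then-up pairs, against 150 bp in pairs of a single direction. The intervals were staggered, each reaching past the other, in 294 up-then-down pairs (81.9%) and 268 down-then-up pairs (85.9%), against 27.4% of pairs gained and 27.5% of pairs lost on both days. No side was preferred in up-then-down pairs, where the day 7 centre lay to the right in 167 and to the left in 183. It lay to the right in 176 and to the left in 130 of the down-then-up pairs.

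Opposite direction was most frequent where regions hardly overlapped. Of 129 pairs that shared under 20% of the shorter region, 67 were opposite (51.9%). The share was 49.7% of 316 pairs sharing 20% to under 50%, 28.9% of 660 pairs sharing 50% to under 80% and 11.1% of 1323 pairs sharing 80% to under 100%. Where the shorter region was shared whole, 109 of 4574 pairs were opposite (2.38%), and of the 593 pairs with identical coordinates 5 were (0.843%). These shares describe the listed regions and were not tested.

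**Figure D2:**
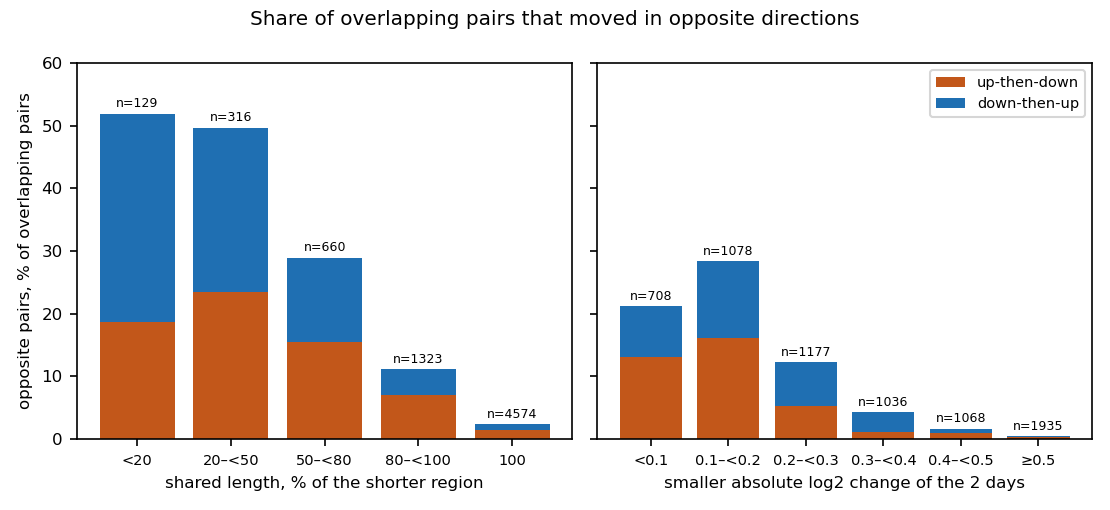
Bars give opposite pairs as a percentage of all overlapping pairs in a class, stacked as up-then-down (orange) and down-then-up (blue), by shared length (left) and by the smaller absolute deposited log2 change of both days (right); n is the number of overlapping pairs. The share drops from 51.9% to 2.38% as overlap becomes complete. By size of change it is 21.2% under 0.1, highest at 28.4% at 0.1 to under 0.2, and 0.465% at 0.5 or more.

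Pairs were called co-located where the shared stretch made up at least 50% of each region. This held for 317 opposite pairs, 199 up-then-down (55.4%) and 118 down-then-up (37.8%), against 86.2% of pairs gained on both days and 89.9% of pairs lost on both days. Among all 5871 co-located pairs, 5.40% were opposite. The other 354 opposite pairs, 160 up-then-down and 194 down-then-up, shared less. The strongest single windows of 1000 bp were compared as well. In co-located pairs they shared at least 500 bp in 168 of 199 up-then-down and 104 of 118 down-then-up pairs. In the other pairs they did so in 25 of 160 and 28 of 194, and had no base in common in 56 and 82.

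A region in an opposite pair could also overlap a region of the other day that moved its own way. In 449 opposite pairs neither region had such a partner, 259 of them up-then-down and 190 down-then-up. In 138 pairs the day 5 region alone had a partner of its own direction at day 7, in 62 the day 7 region alone had one at day 5, and in 22 both did. Without a partner and co-located at once were 268 pairs, 172 up-then-down (47.9%) and 96 down-then-up (30.8%). Being co-located limits a shift in position in these pairs, but their intervals can still be displaced. Only pairs of identical coordinates, described below, are free of such a shift. The 268 pairs are therefore not a count of changes of direction over 1 stretch. Of all 317 co-located opposite pairs, 13 passed a log2 change of 0.3 on both days, 6 up-then-down and 7 down-then-up, among 3620 co-located pairs of that size.

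Among co-located up-then-down pairs, the largest smaller change, 0.56, lay on chromosome 7. Its day 5 region, from 10035501 to 10037300, held 653 and 611 normalised reads at day 5, against 393 and 433 at day 0. Its day 7 region, from 10034701 to 10036900, held 370 and 387 at day 7, against 514 and 601 at day 0. As the rule requires of every pair, drought and day 0 libraries did not overlap in either interval. The level was 1.53 times that of day 0 at day 5 and 0.679 times at day 7. The limma log2 changes were 0.61 (SE 0.08) and -0.55 (SE 0.09).

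Next came a pair on chromosome 12. Over 13956401 to 13958100 it held 455 and 581 normalised reads at day 5, against 322 and 335 at day 0. Over 13956101 to 13957300 it held 228 and 181 at day 7, against 304 and 293 at day 0. The limma log2 change was 0.65 (SE 0.12) at day 5 and -0.56 (SE 0.10) at day 7. The day 7 interval covered mainly the left part of the day 5 interval, with 900 bp shared.

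On chromosome 5, the stretch from 4466701 to 4467800 held 295 and 284 normalised reads at day 5, against 204 and 199 at day 0. The day 7 interval from 4466401 to 4467400 held 292 and 296 at day 7, against 381 and 376 at day 0. The constants differ between the days, at 1.02 for day 5 and 1.11 for day 7 in day 0 replicate 1. The drought values of the 2 days are therefore not compared here. The day 0 level differed by more than these constants between the intervals, whose centres lay 350 bp apart. On chromosome 6 the intervals were almost the same, 4067501 to 4068500 and 4067401 to 4068400. They held 464 and 327 normalised reads at day 5, against 307 and 286 at day 0, and 201 and 175 at day 7, against 262 and 248 at day 0. The day 5 replicates differed more here than in the other named co-located up-then-down pairs (limma log2 change 0.39, SE 0.15), and 1 of them lay only 0.09 above day 0 on the log2 scale. A chromosome 2 pair (day 5 region 24567701 to 24569600) and a chromosome 8 pair (12697101 to 12698500) completed this group. The authors' deposited table gave log2 changes of 0.34 at day 5 and -0.45 at day 7 for the first, and of 0.40 at day 5 and -0.32 at day 7 for the second. On chromosome 2 the strongest windows of the 2 days had no base in common.

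**Figure D3:**
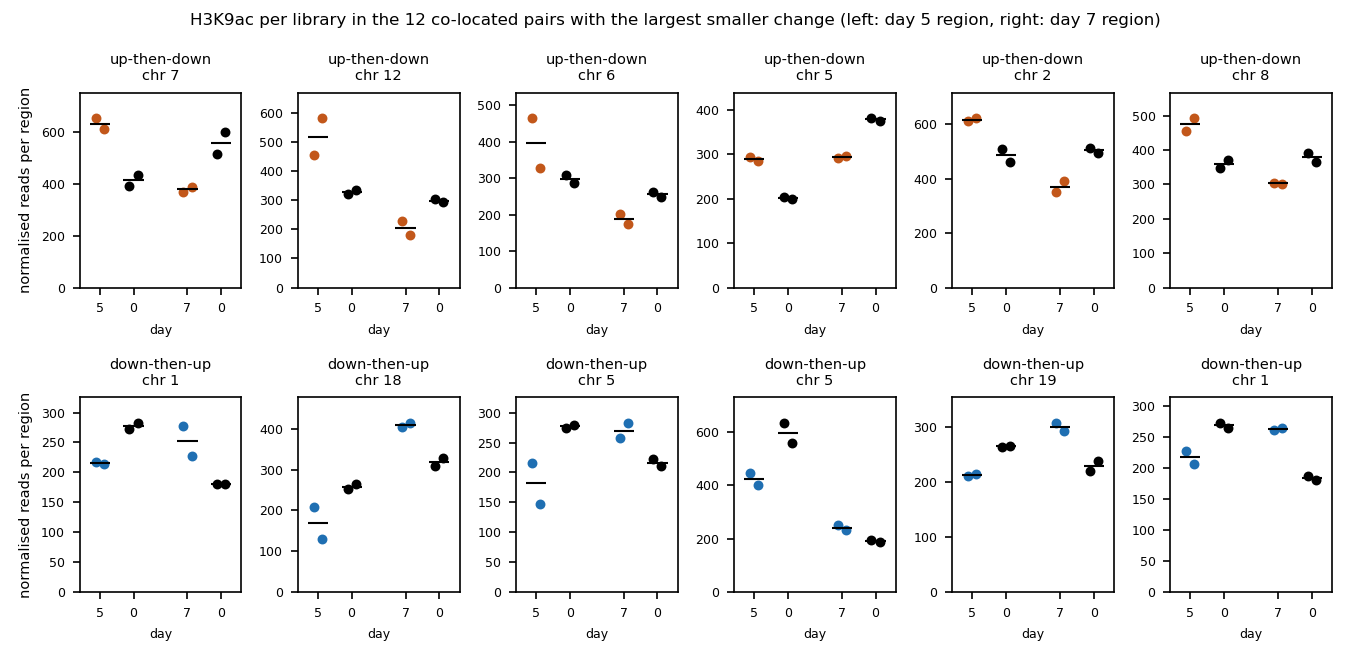
Normalised reads per region in each H3K9ac library for the 12 named co-located pairs; in each panel the day 5 region stands left (day 5, then day 0) and the day 7 region right (day 7, then day 0), points are libraries and lines are means of 2. On chromosome 7 both day 5 points (653 and 611) lie above day 0 and both day 7 points (370 and 387) below it. The rule requires such a separation of every pair.

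The down-then-up pair with the largest smaller change among co-located pairs lay on chromosome 1. The interval from 25233501 to 25234500 held 217 and 214 normalised reads at day 5, against 273 and 283 at day 0. The interval from 25233201 to 25234200 held 277 and 227 at day 7, against 181 and 180 at day 0. The limma log2 changes were -0.37 (SE 0.08) and 0.47 (SE 0.10). As on chromosome 5, the day 0 level differed by more than the constants between 2 intervals that were displaced by 300 bp.

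A pair on chromosome 19 had little displacement. Its day 5 interval from 14501301 to 14502300 held 211 and 214 normalised reads at day 5, against 263 and 265 at day 0. Its day 7 interval from 14501401 to 14502500 held 307 and 293 at day 7, against 219 and 238 at day 0. Replicates lay close together on each day, and the limma log2 changes were -0.32 (SE 0.08) and 0.40 (SE 0.08). On chromosome 1 from 7038101 to 7039100 the values were 228 and 207 at day 5, against 272.9 and 264 at day 0, and in the day 7 interval from 7037501 to 7038700 they were 262 and 264 at day 7, against 186 and 181 at day 0. This pair had the largest day 7 gain of the named co-located group, 1.43 times day 0.

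The remaining 3 named down-then-up pairs had uneven day 5 replicates or day 7 intervals that covered only part of the day 5 interval. On chromosome 18, 208 and 130 normalised reads at day 5 stood against 251 and 264 at day 0 from 12986301 to 12987300 (limma log2 change -0.65, SE 0.20), and 404 and 414 at day 7 against 309 and 329 at day 0 from 12985601 to 12987200. On chromosome 5 from 3500701 to 3501900, 217 and 148 at day 5 stood against 275 and 279 at day 0 (limma log2 change -0.63, SE 0.17). In its day 7 interval from 3501301 to 3502400 the log2 change was 0.32, with an adjusted p of 0.171 in the authors' deposited table. On chromosome 5 from 25255801 to 25257500, 444 and 401 at day 5 stood against 633 and 556 at day 0. The day 7 gain, 251 and 231 against 195 and 189 at day 0, was read over the last 900 bp of that interval and 100 bp beyond.

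In pairs of identical coordinates all 6 H3K9ac libraries were read over the same bases, and there were 5 of these. The day 0 reads of each library were identical in both tables in all 593 such pairs of the series. On chromosome 2 from 5362601 to 5363600 the libraries held 268 and 204 normalised reads at day 5, against 340 and 317 at day 0, and 341 and 333 at day 7, against 312 and 290.0 at day 0. On chromosome 5 from 23097201 to 23098200 they held 270.0 and 204 at day 5, against 332 and 321 at day 0, and 327 and 332 at day 7, against 304 and 294 at day 0. In both the loss at day 5 was the larger part, where the authors' deposited table gave log2 changes of -0.47 and -0.46, and the gain at day 7 was 0.16 and 0.14.

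The other 3 identical pairs changed little on either day. On chromosome 3 from 21355901 to 21356900, 425 and 407 normalised reads at day 5 stood against 357 and 387 at day 0, and 296 and 306 at day 7 against 328 and 354 at day 0. On chromosome 1 from 16404101 to 16405100, 320.1 and 345 at day 5 stood against 369 and 372 at day 0, and 358 and 393 at day 7 against 339 and 340.3 at day 0. On chromosome 1 from 8179201 to 8180400 the deposited log2 changes were 0.11 and -0.08, with an adjusted p of 1 on both days in the authors' deposited table. None of the 5 identical pairs kept its kind when libraries were scaled by their right-trimmed mean of reads per bin.

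Pairs that only touch share under 20% of the shorter region. On chromosome 1 the day 5 region from 50261501 to 50263500 held 495 and 630 normalised reads at day 5, against 370.1 and 397 at day 0, and the day 7 region from 50260601 to 50261600 held 128 and 131 at day 7, against 204 and 218 at day 0. They shared 100 bp. Other regions were listed around them. At day 7 the stretch from 50261601 to 50263500 was itself gained, with 447 and 508 normalised reads at day 7 against 317 and 343 at day 0, and so was 50258501 to 50260900, with 656 and 623 against 398 and 447. The lost day 7 region was a narrow stretch that overlapped the end of 1 of these gained day 7 regions and bordered the other. From 50260601 to 50260900 the same bases were listed as gained and as lost at day 7. Regions of opposite direction thus overlapped within a single day too. At day 5 no region was listed over most of the lost day 7 region. This locus held 3 opposite pairs and was chosen after its values were seen.

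Of the named touching pairs, the down-then-up pair on chromosome 1 was the strongest by its smaller change. Its day 5 region from 9133501 to 9135800 held 436 and 449 normalised reads at day 5, against 667 and 723 at day 0. Its day 7 region from 9132201 to 9133800 held 286 and 295 at day 7, against 192 and 196 at day 0. The loss and the gain lay side by side with 300 bp in common, at limma log2 changes of -0.65 (SE 0.07) and 0.58 (SE 0.08). For the down-then-up pairs on chromosome 10 (day 5 region 4661901 to 4663000) and chromosome 5 (3435301 to 3436300), the authors' deposited table gave log2 changes of -0.52 and -0.41 at day 5, and of 0.56 and 0.58 at day 7. For the up-then-down pairs on chromosome 2 (21821301 to 21822600) and chromosome 7 (2613301 to 2614700), the authors' deposited table gave 0.54 and 0.61 at day 5, and -0.50 and -0.49 at day 7.

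**Figure D4:**
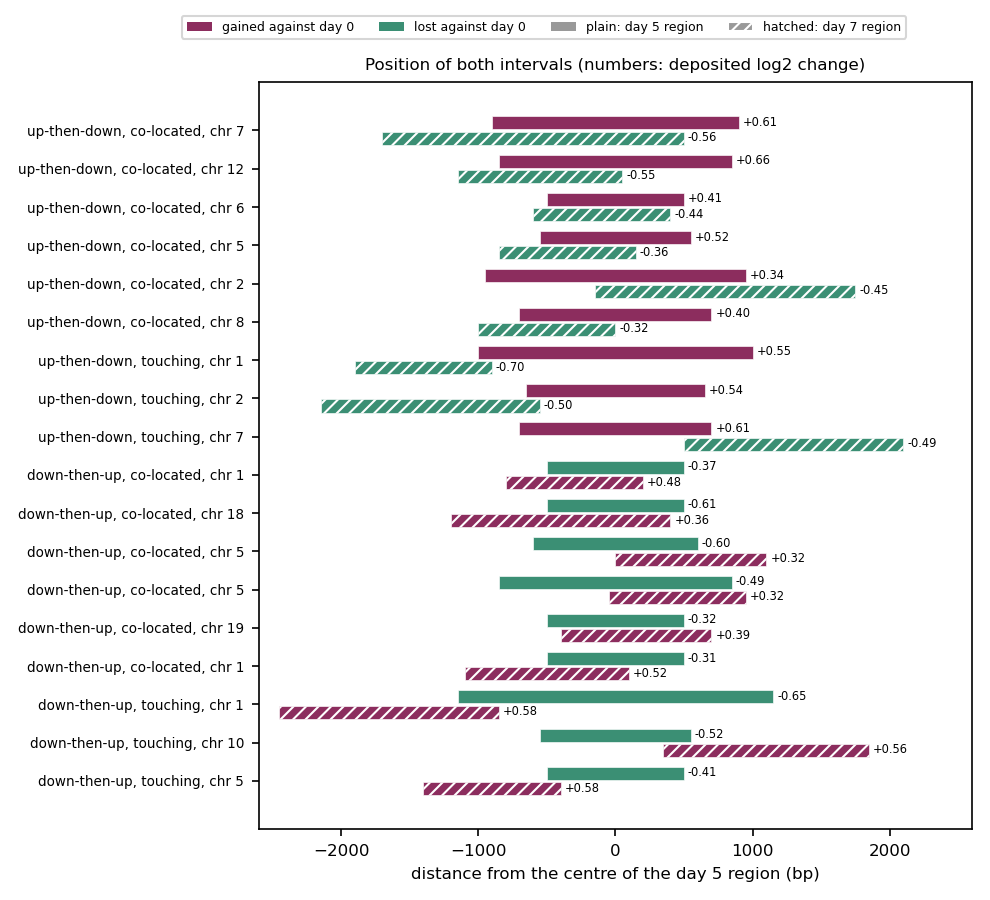
Day 5 intervals (plain) and day 7 intervals (hatched) of the 18 named co-located and touching pairs, in bp from the centre of the day 5 region; purple was gained and green lost against day 0, and numbers are deposited log2 changes. On chromosome 19 the 2 intervals nearly coincide, while the touching pair on chromosome 1 with -0.65 and 0.58 has its gain beside its loss.

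The level of the mark at day 0 followed the same layout. It was read as day 0 reads per kb, both libraries together, in each interval of a pair. In up-then-down pairs the day 7 interval, which was lost, held more day 0 reads per kb than the day 5 interval in 242 of 359 pairs, with a median ratio of 1.12. In down-then-up pairs the gained day 7 interval held fewer than the lost day 5 interval in 251 of 312 and more in 58, with a median ratio of 0.844. Outside co-located pairs the ratios were 1.21 and 0.771, and within them 1.07 and 0.908. In both kinds the lost interval was thus mostly the one richer in H3K9ac at day 0. Over all listed regions, lost regions held a median of 628 day 0 reads per kb at day 5 and 625 at day 7, and gained regions 456 and 451. Since the rule itself sets day 0 against drought, this is a description of where in the profile the 2 intervals lie.

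Enrichment over input also differed between the kinds. It was taken as the geometric mean of the 2 groups' deposited ratios. Up-then-down pairs had a median of 2.46 in their day 5 region and 2.19 in their day 7 region, and down-then-up pairs 1.69 and 1.85. The median of all listed regions was 1.89 at day 5 and 1.76 at day 7. Pairs gained on both days had 2.13 at day 5 and 1.94 at day 7, and pairs lost on both days 1.72 and 1.75. The down-then-up values thus lay close to those of lost pairs at day 5 and gained pairs at day 7. The up-then-down values lay above those of gained pairs at day 5 and lost pairs at day 7. At an enrichment of at least 1 in the larger group on both days, all 359 up-then-down and 299 of 312 down-then-up pairs were kept.

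Input DNA, which the rule did not use, changed by amounts similar to those of the mark. The tables give the input per group and not per library, so no spread can be given for it, and its changes have the day's median over listed regions subtracted. The input change was larger than the H3K9ac change in 344 of 671 pairs at day 5 and in 233 at day 7. This was not counted over all overlapping pairs, and H3K9ac changes in opposite pairs were small, so nothing particular to them is read from it. Over all listed regions the median absolute input change was 0.25 at day 5 and 0.14 at day 7. The median absolute H3K9ac change there was 0.41 and 0.37. Input had the direction of the H3K9ac change in 292 opposite pairs at day 5 (43.5%) and in 381 at day 7 (56.8%), against 41.3% and 59.7% of all overlapping pairs. After subtracting the input change, the sign of the mark was kept on both days in 205 up-then-down pairs (57.1%) and 219 down-then-up pairs (70.2%), against 82.0% of pairs gained and 85.3% of pairs lost on both days. Among the 13 co-located pairs past 0.3, it was kept in 6 of 6 up-then-down and 5 of 7 down-then-up pairs. The largest input change in an up-then-down pair was -1.54 at day 5, on chromosome 14 from 9862201 to 9863200, where the deposited H3K9ac change was 0.16. In a down-then-up pair it was 1.45 at day 7, in the region on chromosome 3 from 17528601 to 17530000, where the deposited H3K9ac change was 0.11. The direction of an input change rests on the file headers, which name day 0 inputs as the background of drought libraries and drought inputs as that of day 0. With the inputs assigned the other way round, a choice added after the data were seen, input had the direction of the mark in 379 opposite pairs at day 5 (56.5%) and 290 at day 7 (43.2%), against 58.7% and 40.3% of all overlapping pairs. The sign was then kept in 242 up-then-down (67.4%) and 174 down-then-up pairs (55.8%), against 81.1% of pairs gained on both days and 77.8% of pairs lost on both days. The order of the kept shares of both kinds thus turned with this assignment. All 13 co-located pairs past 0.3 kept their sign with the inputs turned. The part of input in the opposite directions was not tested.

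The authors' adjusted p passed 0.05 on both days in 447 opposite pairs (66.6%), 231 up-then-down and 216 down-then-up, where 83.6% of all overlapping pairs did. Over the listed regions 91.5% passed at day 5 and 89.1% at day 7. With limma, 236 opposite pairs passed on both days (35.2%), 108 and 128 of the 2 kinds, where 76.0% of all overlapping pairs did; 83.8% of the listed regions passed at day 5 and 83.4% at day 7. The rule used the same contrasts, so nothing is read from these counts. The limma count was far lower without either day 0 replicate. A day 0 library left both fits, while a drought library left only the fit of its own day. Such a fit holds 1 library in a group, so its count is not given. The 2 drought replicates differed by more than the deposited change in 31 opposite pairs at day 5 (4.62%) and in 43 at day 7 (6.41%). Among all overlapping pairs they did so in 5.51% at day 5 and 5.23% at day 7, so nothing is read from these counts either.

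Many pairs lay close to the limit of the rule. The smallest distance between a drought library and the nearest day 0 library had a median of 0.07 in up-then-down and 0.09 in down-then-up pairs on the log2 scale. The up-then-down pair just inside lay on chromosome 1 from 10522801, where 1 day 7 library held 298.05 and 1 day 0 library 298.13 normalised reads. The pair just outside lay on chromosome 10 from 16528401, with 337.19 at day 7 and 336.86 at day 0. The down-then-up pair just inside lay on chromosome 11 from 18472001, with 540.74 at day 5 and 540.84 at day 0. The pair just outside lay on chromosome 17 from 490301, where 1 day 7 and 1 day 0 library both held 344.97. A further 93 pairs went up then down, and 76 down then up, by their group means without meeting the rule.

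Opposite pairs occurred on all 19 chromosomes, and 3 lay on scaffolds. They made up 3.93% of overlapping pairs on chromosome 15, 7.06% on chromosome 19 and 12.2% on chromosome 2, the lowest, the second lowest and the highest value among chromosomes. Joined within 10 kb, they formed 635 loci, 601 of them with a single pair. Of the 34 loci with 2 or more pairs, 9 held up-then-down pairs alone, 15 down-then-up pairs alone and 10 both kinds. A locus on chromosome 13 from 204401 to 217800 held 3 down-then-up pairs. Its day 7 region from 214701 to 216400, with 694 and 817 normalised reads at day 7 against 616 and 656 at day 0, overlapped 2 lost day 5 regions. One, from 214701 to 215700, held 302 and 294 at day 5, against 351 and 374 at day 0, and the other, from 216301 to 217800, held 706 and 671 at day 5, against 932 and 853 at day 0. The third pair joined a lost day 5 region, 205401 to 206800 (-0.40), and a gained day 7 region, 204401 to 205800 (0.31). A further day 7 region, 205201 to 206500, was lost (-0.18). Most of that lost day 5 region was thus lost on both days, and bases 205201 to 205800 were listed as gained and as lost at day 7.

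The counts depended on how libraries were scaled. The authors' constants were replaced by the right-trimmed mean of reads per bin, a choice made after the data were seen. This lowered all log2 changes by a median of 0.10 at day 5 and 0.18 at day 7 and gave 315 up-then-down and 158 down-then-up pairs. Of the original pairs, 216 of 359 and 135 of 312 were among them. Reads before any scaling gave 89 and 6, of which 57 and 6 were original pairs. These reads still hold the differences in depth between libraries. The authors' constants at day 7 were 0.79 and 1.0, against 1.11 and 1.13 for day 0. Without scaling the log2 changes shifted by a median of -0.06 at day 5 and -0.32 at day 7. Up-then-down pairs made up 53.5% of opposite pairs under the deposited scaling, 66.6% under the bin means and 93.7% before scaling. Of the 13 co-located pairs past 0.3, 5 of 6 up-then-down and 7 of 7 down-then-up pairs kept their kind under the bin means, and 4 and 2 did before scaling. The pair on chromosome 6 was the one that did not under the bin means.

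**Figure D5:**
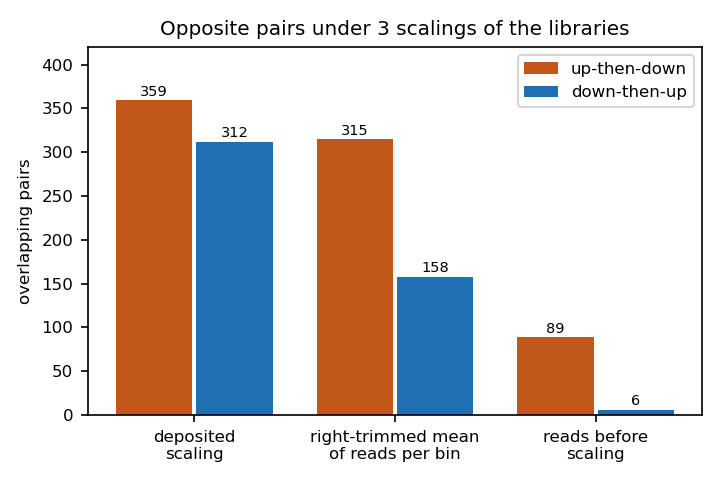
Bars give the number of up-then-down (orange) and down-then-up (blue) pairs with the deposited scaling, with the right-trimmed mean of reads per bin and with reads before scaling. Down-then-up pairs drop from 312 to 158 and 6, and up-then-down pairs from 359 to 315 and 89. Reads before scaling still hold the differences in depth between libraries.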

How the data were processed

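The authors deposited 2 tables, made with diffReps 1.55.4 per the file headers: 1000 bp windows, taken every 100 bp, were tested with a negative binomial model, and those under a p-value of 0.0001 were merged into regions. The submitters' processing notes name Bowtie; no version, read filter or full build is given. In the deposited tables, the signal columns hold the mean of normalised reads per group, each cell of per-library values (another unit) holds both libraries, the ratio columns hold enrichment over background (per the file headers, day 0 inputs for drought libraries and drought inputs for day 0 libraries), the log2 columns hold the change of the region and of its strongest window, and p-value columns hold the Benjamini-Hochberg adjusted p. Adjustment covered 59188 tests at day 5 and 57991 at day 7.

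Pairs were found by a search checked on simulated intervals. Chromosomes were matched by number between the tables. Reads were recovered with a constant per library fitted near that of the header, and 100% of values came out whole within 0.1. Replicates were further apart than sampling noise allows (chi-square over degrees of freedom 1.42 to 3.16), so none was counted as a repeat deposit. Input change was the ratio of the backgrounds that the deposited ratios imply, minus its median. limma 3.58.1 in R 4.3.3 was fitted to log2 normalised reads of all listed regions of each table, with a trended prior variance, after a test on simulated data. A region with an adjusted p under 0.05 passed.

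The rule and its alternatives were chosen with earlier results of these data known. Named pairs were, per kind, the 6 co-located and 3 touching pairs with the largest smaller change, all of identical coordinates, those just inside and outside the rule, and the one with the largest input change. Genes were not assigned: 214 regions at day 5 and 245 at day 7 start beyond the final gene of the chromosome in the RefSeq gene table of assembly P.trichocarpa_v4.1. No permutation test was run, since 2 libraries against 2 cannot reach 0.05.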

Additional observations from a re-analysis of the deposited data

Results flagged for a closer look

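In 17 named pairs, co-located or of identical coordinates, the libraries of the 2 drought days lay on opposite sides of day 0, as the rule requires. The difference between the days was not tested. As log2 change at day 7 minus that at day 5, from the authors' deposited table, it was -1.17 on chromosome 7, -1.21 on chromosome 12, -0.85 on chromosome 6, -0.88 on chromosome 5, -0.79 on chromosome 2 and -0.72 on chromosome 8 in the co-located up-then-down pairs. In the co-located down-then-up pairs it was 0.85 on chromosome 1 from 25233501, 0.83 on chromosome 1 from 7038101, 0.97 on chromosome 18, 0.92 on chromosome 5 from 3500701, 0.81 on chromosome 5 from 25255801 and 0.71 on chromosome 19. In pairs of identical coordinates it was -0.19 and -0.34 for the up-then-down pairs on chromosomes 1 and 3, and 0.30, 0.63 and 0.60 for the down-then-up pairs on chromosomes 1, 2 and 5.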

How the results depend on the processing

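Against 359 up-then-down, 312 down-then-up, 317 co-located and 449 partnerless pairs, a log2 change of at least 0.3 on both days left 29, 42, 13 and 50. Reads before scaling gave 89, 6, 37 and 82, where 57 of the 89 and 6 of the 6 were original pairs. The bin means gave 158 down-then-up pairs, 135 of them original ones. A shared length of at least 500 bp left 207 down-then-up pairs and 132 of the 236 pairs called by limma. The authors' adjusted p on both days left 231 up-then-down and 189 co-located pairs. Keeping the sign over input left 205 and 176, and with the inputs turned 174 down-then-up and 191 co-located pairs. Strongest windows sharing 500 bp left 193 up-then-down, 132 down-then-up and 282 partnerless pairs. Leaving out 1 library loosens the rule, so no original up-then-down, down-then-up or co-located pair could be lost. Counts of these pairs could only stay or rise, and nothing is read from a rise. Leaving out 1 library gave 379 to 404 up-then-down, 328 to 349 down-then-up, 344 to 375 co-located and 465 to 487 partnerless pairs, a median overlap of 63.6% to 70% against 60%, and 70 to 227 limma calls, where 77 and 70 came without day 0 replicate 1 and 2. With the replicate number as a block limma called 230 pairs; deviations of same-numbered libraries correlated at 0.108 and 0.0939, and no label ties the numbers. The bin means, the sign over input (also turned) and the windows were added after the data were seen. The causes were not tested. Other counts and the median overlap stayed within 1.5 times under every setting run. Reads per region limit differences to about 0.07 on the log2 scale, and inputs have no replicate values.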

Other observations

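Input on chromosome 14 stood apart at day 5. The median input change of its 595 listed regions was -0.54 on the log2 scale, against medians of -0.06 to 0.07 on the other 18 numbered chromosomes. At day 7 the value for chromosome 14 was -0.02. Of 101 listed day 5 regions with an input change of -1 or lower, 100 lay on chromosome 14, and so did 10 of the 11 opposite pairs with an input change of at least 1 on either day. The median deposited H3K9ac change of chromosome 14 was -0.08 at day 5 and -0.10 at day 7. Of the opposite pairs on it, 11 of 22 up-then-down and 5 of 20 down-then-up pairs kept their sign over input, against 194 of 337 and 214 of 292 elsewhere. The sign of the input change and these counts follow the file headers. With drought and day 0 inputs assigned the other way round, 1 of 22 up-then-down and 16 of 20 down-then-up pairs on chromosome 14 kept their sign, against 241 of 337 and 158 of 292 elsewhere.

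The largest change on a single day in an opposite pair was a loss at day 5 on chromosome 10 from 14462401 to 14464900, with a log2 change of -1.23 in the authors' deposited table. The day 7 region that overlapped it, from 14464601 to 14465600, had a change of 0.19 and shared 30% of the shorter region. On chromosome 8 from 3752701 to 3756100 the day 5 change was -1.14. The day 7 region from 3752801 to 3753800 lay wholly inside it, with a change of 0.11. The largest gain at day 5 was 0.81, on chromosome 7 from 15144501 to 15148500, with a day 7 change of -0.12 over 15143501 to 15145000. These 3 pairs were chosen after their values were seen.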
